A study of Mus musculus with 9 samples.

Results

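Myofibroblast and contractile genes were followed as a set of 10 genes, chosen by name from the 49548 genes of the deposited tables: the actins Acta2 and Actg2, the actin-binding genes Tagln and Cnn1, the myosin genes Myl9 and Myh11, the tropomyosins Tpm1 and Tpm2, the matrix gene Postn, and Lrrc15, a membrane protein of activated fibroblasts. A myofibroblast is a fibroblast that has built smooth muscle type stress fibers and can pull on the matrix around it. Its contractile genes are driven largely by serum response factor (SRF) with its myocardin-related cofactors (MRTF), which bind a DNA element called the CArG box, and both TGF-beta and mechanical tension promote the state. In the inflamed joint, synovial fibroblasts (SFs) thicken the lining and invade cartilage, and fibroblasts grown on stiff plastic commonly acquire some contractile features.

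The libraries came from SFs grown from ankle joints of 8-week-old mice on a CBA C57BL/6J background, from which CD45+ leukocytes had been depleted at passage 1. WT SFs (3 libraries) were compared with untreated SFs of hTNFtg mice (3 libraries), which carry a human TNF transgene and develop destructive polyarthritis, and with hTNFtg SFs given infliximab, an antibody against human TNF, at 1 µg/mL for 48 hours in culture (3 libraries). By the labels neither the WT nor the other hTNFtg SFs received a treatment, while the study's methods speak of vehicle. Polyadenylated RNA was read from its 3′ end, so a gene's normalized count follows the number of transcripts captured and was not divided by transcript length.

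Depth was uneven. An estimated 3828515 to 9014963 reads stood behind 8 of the libraries, but only about 613213 behind hTNFtg replicate 1, which was 6.24 to 14.7 times shallower. There 1 read counts as 6.23 normalized counts, and 3 reads, taken as the floor of detection, as 18.7, against 1.60 to 3.31 elsewhere. A second library stood apart: the summed normalized count of 8 hepatocyte markers was 813 in infliximab replicate 3 (Alb 265) and 9 to 43 in all other libraries. Where leaving out either library ends a call, the value without it is given. The fibroblast label was met, as all 12 fibroblast markers averaged at least 10 normalized counts and summed to 36789 to 53914 in every library, while 5 endothelial markers summed to 1 to 6. Markers of other cells were present and differed between the groups. The 6 chondrocyte markers summed to 6215 to 9345 in WT and 548 to 1209 in hTNFtg SFs, and the 7 leukocyte markers to 99 to 237 and 381 to 855.

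Of the 10 genes, 9 averaged at least 10 normalized counts over the libraries compared, and they differed widely in level. Acta2, which encodes alpha smooth muscle actin, ranked 163rd of all genes by its mean normalized count over the 9 libraries, and Tpm1, whose product stabilizes actin filaments, ranked 221st. Postn, which encodes the matricellular protein periostin, ranked 720th, Tagln 839th, Myl9 1185th, Tpm2 1248th and Cnn1 2722nd. Actg2, the enteric smooth muscle actin, and Lrrc15 lay far lower, with means of 41.9 and 18.4. Myh11, the heavy chain of smooth muscle myosin and a defining gene of mature smooth muscle, was at 0 in 8 libraries and at 1 normalized count in infliximab replicate 3. It was therefore at or under the floor in every library and gets no fold change.

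Several muscle genes outside the set were near 0 as well, while Mylk, Smtn, Nexn and Lmod1 were not and are described with their list. Myocd, the cofactor that switches on the smooth muscle programme, did not exceed 3 normalized counts in any library, and Des (desmin) did not exceed 6. Actc1, Casq2, Pln and Tnnt2, which are not particular to smooth muscle, did not exceed 5. Of the 14 skeletal muscle markers, Actn3 stood at 87 to 463 and the next highest, Acta1 and Mylpf, did not exceed 41 and 25, while Ckm did not exceed 4 and Myog did not exceed 10. The set as measured here thus holds the actin, tropomyosin, calponin-family and light chain genes of a contractile fibroblast and none of the smooth muscle heavy chain.

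**Figure D1:**
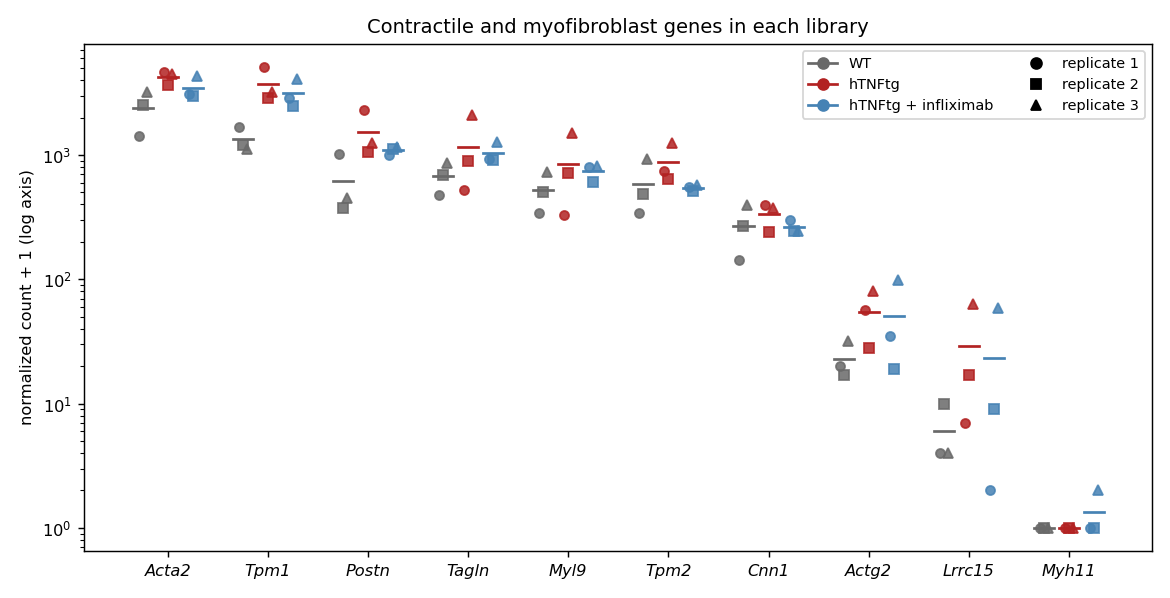
Normalized count plus 1 (log axis) of each of the 10 genes in the 9 libraries, with WT SFs in grey, untreated hTNFtg SFs in red and infliximab-treated hTNFtg SFs in blue, symbols for the replicate number and bars for the group means. Acta2, Tpm1 and Postn show every hTNFtg library above every WT library, and Myh11 lies at the bottom throughout.

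Promoter sequences were taken from RefSeq (GRCm38.p6, the same assembly as mm10) as 250 bases before to 50 after the start site, and 7 of the 10 genes had at least 1 window. Actg2, Tagln and Myh11 had none. Those of Acta2 and Myl9 are printed because they hold CArG elements, and those of Tpm1 and Postn because these genes passed the test in hTNFtg SFs. Capitals mark the matched motifs, and each sequence runs 5′ to 3′ on the gene's own strand.
Acta2 (chr19:34255324-34255623, minus strand): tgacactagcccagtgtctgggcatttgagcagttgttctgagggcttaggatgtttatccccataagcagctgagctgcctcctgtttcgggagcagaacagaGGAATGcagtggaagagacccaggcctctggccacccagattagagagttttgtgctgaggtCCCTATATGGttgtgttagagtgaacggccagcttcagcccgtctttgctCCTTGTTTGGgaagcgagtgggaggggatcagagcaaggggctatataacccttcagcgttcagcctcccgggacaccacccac
Myl9 (chr2:156775214-156775513, plus strand): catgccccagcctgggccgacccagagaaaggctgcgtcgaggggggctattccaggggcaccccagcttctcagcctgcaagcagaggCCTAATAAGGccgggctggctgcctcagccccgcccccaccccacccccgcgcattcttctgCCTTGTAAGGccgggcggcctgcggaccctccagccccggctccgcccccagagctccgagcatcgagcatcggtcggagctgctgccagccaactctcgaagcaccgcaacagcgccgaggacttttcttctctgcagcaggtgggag
Tpm1 (chr9:67049164-67049463, minus strand): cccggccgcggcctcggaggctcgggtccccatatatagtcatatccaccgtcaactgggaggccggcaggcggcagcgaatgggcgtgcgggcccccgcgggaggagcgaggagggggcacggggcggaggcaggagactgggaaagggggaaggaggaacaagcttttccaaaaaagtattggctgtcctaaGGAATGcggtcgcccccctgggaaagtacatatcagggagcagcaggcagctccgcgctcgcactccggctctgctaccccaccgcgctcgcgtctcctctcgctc
Postn (chr3:54360857-54361156, plus strand): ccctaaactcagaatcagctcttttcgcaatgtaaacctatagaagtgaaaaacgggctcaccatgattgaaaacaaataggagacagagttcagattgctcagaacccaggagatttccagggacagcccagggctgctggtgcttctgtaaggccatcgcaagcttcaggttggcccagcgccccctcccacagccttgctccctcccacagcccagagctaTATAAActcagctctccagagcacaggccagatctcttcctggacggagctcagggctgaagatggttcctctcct

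A CArG box (CC, then 6 bases that are each A or T, then GG) was found in the Myl9 window alone among these genes, as CCTAATAAGG from -161 to -152 relative to the start site. The looser CArG-like element, which allows 1 G or C among the 6 middle bases and so includes every CArG box, occurred again in Myl9 (CCTTGTAAGG, from -99 to -90) and in Acta2 (CCCTATATGG, from -84 to -75, and CCTTGTTTGG, from -34 to -25). Of all 32851 RefSeq promoter windows of this length, 1.63% held a CArG box and 9.98% a CArG-like element. The letters TATAAA stood from -26 to -21 in the printed Postn window (13.6% of all windows). Another Postn window, starting at chr3:54359017 and not printed, held no match to any motif searched here. CATTCC, the core bound by TEAD factors, stood on the opposite strand in Tpm1 from -56 to -51 and in Acta2 from -146 to -141 (14.7% of all windows, both strands searched). Positions count from the RefSeq start site, which can differ from the gene's start in the deposited coordinates. For Acta2 the latter (34255336) lies downstream of the RefSeq site, so its elements stand further from that start. Such matches are letters in a window and were not tested for binding.

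The comparison of hTNFtg with WT SFs asks whether the contractile genes differ between arthritic and healthy cells. All 9 measured genes had a higher mean log2 value in hTNFtg SFs, with a median log2 fold change of 0.91. Among all genes with a mean of at least 10 normalized counts, 45.0% were higher in hTNFtg SFs and the median was -0.07. The study's rule asks for a log2 fold change of 1 or more in either direction together with a P value below 0.05 before adjustment, taken here from limma on log2 of the normalized count plus 1. By it Tpm1, Postn and Actg2 were raised and none was lowered. Over all genes tested, 3.35% were raised and 3.04% lowered by that rule, and 4.96% of those with a mean of at least 10 were raised. None of the 10 genes reached an adjusted p below 0.05 in limma, as 0.48% of all genes did, and Tpm1, Postn and Actg2 were the ones below 0.05 before adjustment. With edgeR on approximate reads, Tpm1 and Lrrc15 reached it, among 3.22% of all genes.

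Tpm1 (chr9:67022590-67049406, minus strand, ENSMUSG00000032366) showed the firmest difference. Its normalized counts were 1683, 1200 and 1108 in WT SFs and 5095, 2896 and 3200 in hTNFtg SFs, with 818 to 5995 reads behind each. Every hTNFtg library lay above every WT library, and the lowest of them stood well over the highest WT value. Means were 1330 ± 309 and 3730 ± 1192 (SD, n = 3 each). The log2 fold change was 1.47 (SE 0.38, 95% interval 0.64 to 2.29, limma adjusted p = 0.164). It passed the rule with any 1 of the 6 libraries left out, between 1.22 without the shallow hTNFtg replicate 1 and 1.65 without WT replicate 1. Its adjusted p was 0.0239 in edgeR and 0.0201 in limma with array quality weights, which count scattered libraries for less, and ran up to 0.720 over the 15 alternative settings.

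Postn (chr3:54361109-54391037, plus strand, ENSMUSG00000027750) stood at 1021, 372 and 453 in WT SFs and at 2311, 1055 and 1251 in hTNFtg SFs. The groups did not overlap, but the highest WT library, replicate 1, came close to the lowest hTNFtg library. The means were 615 ± 354 and 1539 ± 676 (SD, n = 3 each), a log2 fold change of 1.38 (SE 0.44, 95% interval 0.42 to 2.34, limma adjusted p = 0.300). The call was lost without WT replicate 2 (1.09), without WT replicate 3 (1.23) and without hTNFtg replicate 1 (1.04), where the P value before adjustment was above 0.05. Postn was highest in replicate 1 of both groups, and that of hTNFtg is the shallow library, with 371 reads for this gene.

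Acta2 (chr19:34241090-34255336, minus strand, ENSMUSG00000035783) was measured at 1427, 2510 and 3203 normalized counts in WT SFs and at 4684, 3653 and 4463 in hTNFtg SFs. Again no hTNFtg library fell to the level of any WT library. The means of 2380 ± 895 and 4267 ± 543 (SD, n = 3 each) gave a log2 fold change of 0.91 (SE 0.42, 95% interval -0.004 to 1.83, limma adjusted p = 0.647), which does not pass the rule. Without WT replicate 3 the value was 1.16 and passed, and without WT replicate 1, the lowest of all libraries, it was 0.58. Acta2, Tpm1 and Postn were the 3 genes of the set with all hTNFtg libraries above all WT libraries, a pattern shown by 5.63% of all genes tested and by 9.42% of those with a mean of at least 10.

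Actg2 (chr6:83512905-83536265, minus strand, ENSMUSG00000059430) passed the rule at a low level. Its normalized counts were 19, 16 and 31 in WT SFs and 56, 27 and 79 in hTNFtg SFs, and the groups overlapped. The 56 of hTNFtg replicate 1 rests on 9 reads. The log2 fold change was 1.18 (SE 0.51, 95% interval 0.06 to 2.31, limma adjusted p = 0.605). The call was lost without WT replicate 1 (1.11), WT replicate 2 (0.99), hTNFtg replicate 1 (1.09) or hTNFtg replicate 3 (0.85), with all 9 libraries in 1 fit (1.18) and with array quality weights (0.68).

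Lrrc15 (chr16:30269302-30283256, minus strand, ENSMUSG00000052316), whose product marks matrix-producing fibroblasts in tumors and wounds, was at 3, 9 and 3 normalized counts in WT SFs and at 6, 16 and 62 in hTNFtg SFs. Only hTNFtg replicate 3 was clearly above the rest, and the 6 of replicate 1 is a single read. The log2 fold change was 1.85 (SE 0.91, 95% interval -0.14 to 3.84, limma adjusted p = 0.692). It passed the rule without hTNFtg replicate 1 (2.59) and with array quality weights (1.51), and edgeR gave 2.66 (adjusted p = 0.00343, and up to 0.831 under other settings). Without hTNFtg replicate 3 it was 1.01 and did not pass.

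The second tropomyosin and the calponin, light chain and transgelin genes did not pass. Tpm2 (chr4:43514711-43523765, minus strand) was at 340, 485 and 926 in WT SFs and at 747, 645 and 1254 in hTNFtg SFs, with overlapping groups and a log2 fold change of 0.66 (95% interval -0.24 to 1.56, limma adjusted p = 0.726). It passed only without WT replicate 3 (1.06). Cnn1 (chr9:22099216-22109630, plus strand), encoding calponin 1, was at 143, 265 and 392 and at 392, 237 and 376, again overlapping, with a log2 fold change of 0.41 (95% interval -0.44 to 1.26). It was 0.020 without WT replicate 1, 0.017 with array quality weights and 0.74 without WT replicate 3.

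Myl9 (chr2:156775420-156781658, plus strand), the regulatory light chain that is phosphorylated to start contraction, was at 341, 504 and 722 in WT SFs and at 330, 717 and 1506 in hTNFtg SFs. The hTNFtg libraries spanned the whole WT range. The log2 fold change was 0.51 (95% interval -0.59 to 1.60), -0.04 without hTNFtg replicate 3 and 1.06 without the shallow hTNFtg replicate 1. Tagln (chr9:45929619-45936058, minus strand), encoding transgelin (SM22), was at 476, 692 and 856 in WT SFs and at 517, 898 and 2089 in hTNFtg SFs. These groups overlapped too, with a log2 fold change of 0.59 (95% interval -0.43 to 1.62), 0.06 without hTNFtg replicate 3 and 1.06 without hTNFtg replicate 1, and neither gene passed the rule in any of these.

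The 3 hTNFtg libraries did not carry the set at 1 common level. Replicate 1 was the highest of its group for Acta2, Tpm1, Postn and Cnn1 and the lowest for Tagln and Myl9, which were highest in replicate 3 along with Tpm2, Actg2 and Lrrc15. The ratio of Acta2 to Tagln was therefore 9.06, 4.07 and 2.14 in the 3 hTNFtg libraries, against 3.00 to 3.74 in WT SFs and 3.28 to 3.39 with infliximab. In contrast, Tagln stood at 1.17 to 1.57 times Myl9 in all 9 libraries. The shallow hTNFtg replicate 1 held 83 reads of Tagln and 53 of Myl9, and all Tagln values carry the limit given in the next paragraph. Tpm1 stood at 4.95, 2.47 and 1.20 times Tpm2 in WT SFs, at 6.82, 4.49 and 2.55 times in hTNFtg SFs and at 5.17, 4.80 and 7.21 times with infliximab.

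The values of Tagln carry a limit that no other gene of the set has. Its 3′ end overlaps by 108 bases that of Pcsk7 (chr9:45906497-45929726, plus strand), a proprotein convertase gene on the opposite strand. Pcsk7 was listed at 483, 697 and 857 in WT SFs, 517, 902 and 2090 in hTNFtg SFs and 939, 912 and 1265 with infliximab. These are the Tagln values to within 8 normalized counts in every library, a difference of -0.08% to 1.47% of Tagln. Whether reads were counted by strand is not given in the sources used here, so reads of the pair cannot be told apart from these tables. The other 8 genes above the floor overlap no other annotated gene.

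**Figure D2:**
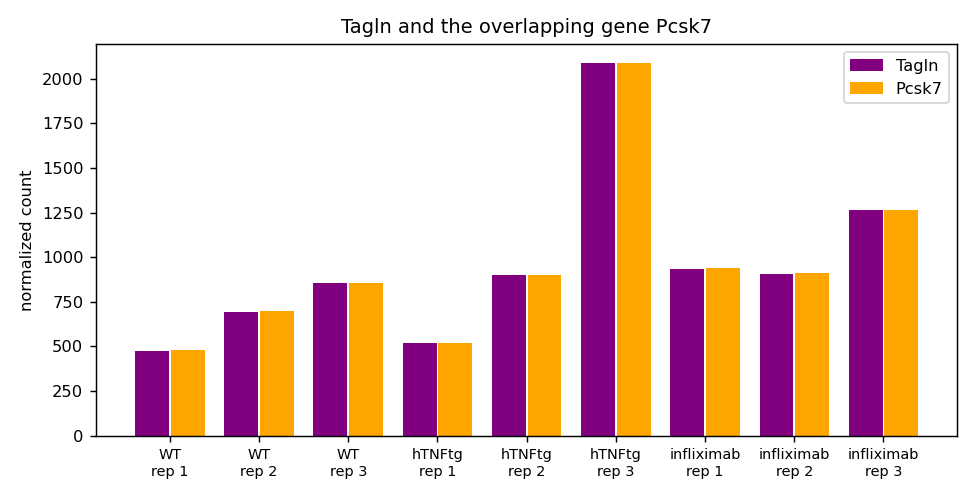
Normalized counts of Tagln (purple) and of the overlapping gene Pcsk7 (orange) in each of the 9 libraries. The 2 bars of each library are almost equal, from 476 and 483 in WT replicate 1 to 2089 and 2090 in hTNFtg replicate 3.

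Near-identical relatives could also share reads, so the last 300 bases of annotated transcripts were compared in stretches of 25 bases. Acta2 and Actg2 shared none, Acta2 shared 2 of 552 with Actg1, and Actg2 shared 7 of 777 with Actc1 and 2 each with Actb and Actg1. The tropomyosins, light chains and calponins shared none within their families.

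Summed over the 10 genes, the set held 0.125% to 0.177% of all normalized counts in WT SFs, 0.247% to 0.370% in hTNFtg SFs and 0.214% to 0.302% with infliximab. The highest WT library stayed under the lowest library of both other groups. Among single genes tested, 5.63% showed this pattern in hTNFtg and 7.14% in infliximab-treated against WT SFs. With a mean of at least 10 these shares were 9.42% and 11.3%. The sum includes the Tagln values, which cannot be told apart from those of Pcsk7. Acta2 and Tpm1 carried most of this sum. Acta2 made up 26.2% to 41.6% of it in WT SFs, 31.3% to 36.0% in hTNFtg SFs and 32.4% to 34.0% with infliximab, and Tpm1 made up 14.4% to 30.9%, 22.4% to 36.0% and 27.9% to 32.6%. As these were bulk cultures, more cells of a contractile kind and more RNA of these genes per cell cannot be told apart.

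**Figure D3:**
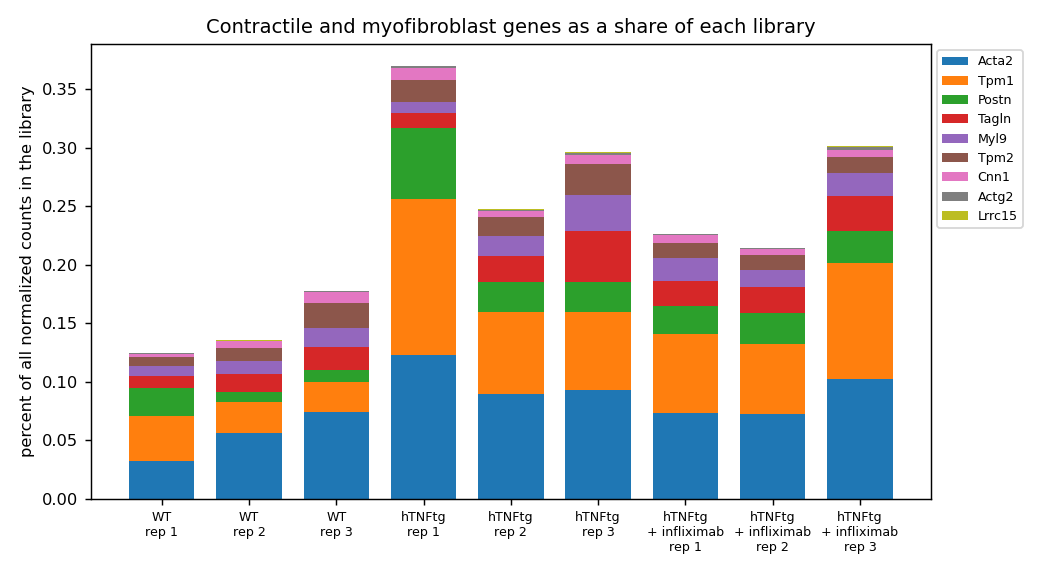
Share of all normalized counts (percent) held by each gene, stacked for each of the 9 libraries. Myh11 is left out because it was at the floor. The stacks reach 0.125% to 0.177% in WT SFs and 0.214% to 0.370% in hTNFtg SFs with or without infliximab.

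The comparison of infliximab-treated with untreated hTNFtg SFs asks whether blocking TNF for 48 hours moves these genes. None of the 10 passed the rule with limma, none was below 0.05 before adjustment, and none passed the rule in edgeR either. Over all genes, 2.43% passed the rule, 1.49% raised and 0.936% lowered, and 3.59% were below 0.05 before adjustment. Without the shallow hTNFtg replicate 1 the balance turned, with 481 genes raised and 930 lowered against 426 and 267 with all libraries. The 9 measured genes had a median log2 fold change of -0.32, with 2 of 9 above 0, while all genes with a mean of at least 10 had a median of 0.03 and 52.7% above 0. A missed threshold does not show that a gene was unmoved, so the interval of each difference is given.

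Acta2 was at 3100, 2968 and 4290 normalized counts with infliximab, a mean of 3453 ± 728 (SD, n = 3). These values overlapped those of untreated hTNFtg SFs, and the log2 fold change was -0.32 (95% interval -1.16 to 0.53, limma adjusted p = 0.805). Tpm1 was at 2861, 2459 and 4117, again overlapping, with -0.23 (95% interval -1.11 to 0.64, adjusted p = 0.882). Postn was at 991, 1108 and 1157, inside a far narrower range than without infliximab, with -0.42 (95% interval -1.17 to 0.33, adjusted p = 0.803). Without the shallow hTNFtg replicate 1 these came to -0.25 for Acta2, 0.01 for Tpm1 and -0.08 for Postn, and without infliximab replicate 3 to -0.48, -0.45 and -0.47.

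Tpm2 was the gene of the set whose groups did not overlap. It was at 553, 512 and 571 with infliximab, under each untreated hTNFtg library, with a log2 fold change of -0.63 (95% interval -1.31 to 0.04, limma adjusted p = 0.803). Over all genes tested, 3.44% lay lower in this way. Tagln (935, 904 and 1266) and Myl9 (801, 609 and 814) both gave 0.05, with intervals of -0.89 to 0.99 and -0.91 to 1.01, and the direction of both turned with the library left out (-0.42 to 0.59 and -0.50 to 0.59) and in edgeR (-0.15 and -0.18). Cnn1 (297, 243 and 242) gave -0.33 (95% interval -0.96 to 0.30), and every Cnn1 value lay within the untreated range.

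The low genes were too scattered to compare. Actg2 was at 34, 18 and 97 with infliximab, a log2 fold change of -0.32 (95% interval -1.58 to 0.94), and Lrrc15 was at 1, 8 and 58, with -0.94 (95% interval -3.36 to 1.48). For both genes the highest value came from infliximab replicate 3, the library with hepatocyte transcripts.

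The comparison of infliximab-treated hTNFtg SFs with WT SFs asks which of these genes still differed from healthy cells after TNF was blocked. It shares its libraries with the comparisons above and is not independent of them. All 9 measured genes were again above 0, with a median log2 fold change of 0.64 against -0.02 for all genes with a mean of at least 10, of which 48.6% were above 0. Tpm1 alone passed the rule, where 3.86% of all genes were raised. Its log2 fold change was 1.23 (SE 0.25, 95% interval 0.67 to 1.79, limma adjusted p = 0.0671). It passed with any 1 library left out, from 1.02 without infliximab replicate 3 to 1.41 without WT replicate 1, and its edgeR adjusted p was 1.2e-05, with values up to 0.407 under other settings.

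Postn and Tagln were below 0.05 before adjustment without reaching the fold of the rule. Postn gave 0.96 (95% interval 0.22 to 1.70, limma adjusted p = 0.260, 0.0129 in edgeR and up to 0.646 under other settings), and its groups overlapped through WT replicate 1. Without that library it gave 1.40 and passed. Tagln gave 0.64 (95% interval 0.09 to 1.19, limma adjusted p = 0.324), with every infliximab library above every WT library, as in Tpm1. Over all genes tested, 7.14% showed that pattern, and 11.9% were below 0.05 before adjustment. The Tagln values are those of the Tagln and Pcsk7 pair.

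Acta2 gave 0.59 (95% interval -0.09 to 1.27), Myl9 0.56 (95% interval -0.04 to 1.16) and Actg2 0.86 (95% interval -0.38 to 2.10), each with overlapping groups. Actg2 passed without infliximab replicate 2 (1.40) and in edgeR (1.18, adjusted p = 0.0504, and up to 0.837 under other settings). Cnn1 (0.08, 95% interval -0.64 to 0.80) and Tpm2 (0.03, 95% interval -0.68 to 0.73) were close to WT in the mean. Lrrc15 gave 0.91 (95% interval -1.49 to 3.31) and -0.36 without infliximab replicate 3, and edgeR gave 2.29 (adjusted p = 0.00546, and up to 0.868 under other settings). Tpm1, Postn and Lrrc15 were thus the genes below an adjusted p of 0.05 in edgeR, among 4.67% of all genes.

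**Figure D4:**
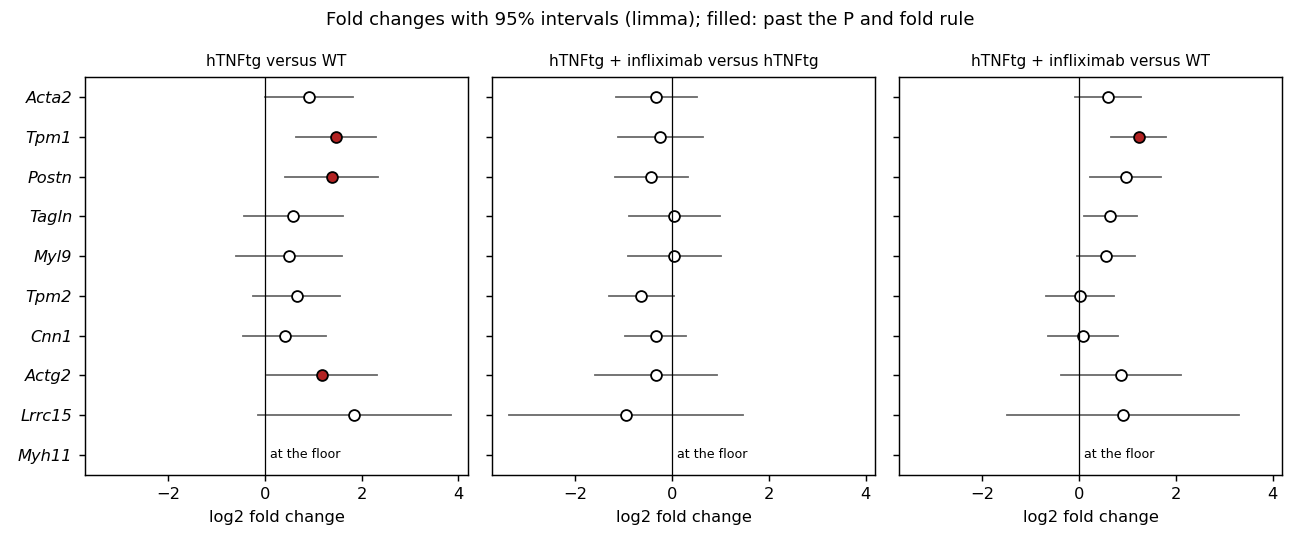
Log2 fold change with its 95% interval (limma, on log2 of the normalized count plus 1) for each gene in the 3 comparisons, with filled points for genes past the rule. Tpm1 is filled in both comparisons with WT SFs (1.47 and 1.23), and no gene is filled for infliximab against untreated hTNFtg SFs.

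Genes around the set were read from lists. Of 24 genes of the actin cytoskeleton and adhesion, 1 was raised in hTNFtg SFs, none was lowered, and 16 were above 0 (median 0.47). That is 1 of 24 raised where 4.96% of all genes with a mean of at least 10 were, and for the signs 45.0% of those genes were above 0 (median -0.07). The raised gene was Tln1, encoding the integrin linker talin 1, with 154, 180 and 192 normalized counts in WT SFs and 498, 218 and 417 in hTNFtg SFs (log2 fold change 1.03, SE 0.34, limma adjusted p = 0.364). This call was lost without WT replicate 1 (0.94), the shallow hTNFtg replicate 1 (0.79) or hTNFtg replicate 3 (0.91). The highest genes of the list were Actb (beta-actin, 0.77), Actn1 (alpha-actinin 1, -0.01), Lima1 (-0.22) and Tagln2 (0.60). None of the list passed with infliximab against either group, where 2.43% of all genes tested passed against untreated hTNFtg and 6.81% against WT SFs.

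Of 13 muscle contractile genes outside the set, not all particular to smooth muscle, 12 were above 0 in some library of hTNFtg or WT SFs. None passed the rule between these groups. Over all genes tested, 3.35% were raised and 3.04% lowered in that comparison. Mylk, the kinase that phosphorylates the myosin light chain, was at 1290, 1455 and 852 in WT SFs and at 1046, 906 and 1006 in hTNFtg SFs (-0.25). Smtn (-0.38), Nexn (0.30) and Lmod1 (0.22) did not pass either. Synpo2, with a mean of 10.3 over the libraries, was raised with infliximab against WT SFs (1.86, limma adjusted p = 0.405), where 3.86% of all genes tested were. That call held only without WT replicate 3 among the 6 fits with 1 library left out (1.68 without infliximab replicate 3).

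Among 10 genes for SRF, its MRTF cofactors and immediate targets, Ankrd1 and Fos were raised in hTNFtg SFs, where 3.35% of all genes were, and 5 of 10 were above 0 (median 0.0053). Ankrd1, a stretch-responsive gene, was at 4, 4 and 9 in WT SFs and at 25, 38 and 59 in hTNFtg SFs (log2 fold change 2.64, SE 0.64, limma adjusted p = 0.130), where the groups did not overlap and the 25 of replicate 1 rests on few reads. Fos was at 22, 9 and 1 and at 118, 15 and 27 (2.29, SE 0.97, adjusted p = 0.595), and its call was lost without WT replicate 2 (2.47) or 3 or without hTNFtg replicate 1 (1.46) or 3 (2.50), while that of Ankrd1 held with any 1 library left out. Srf itself was at 658 to 686 in WT SFs and at 550 to 817 in hTNFtg SFs (-0.01). Ctgf, a matricellular target of both TGF-beta and mechanical signals, reached 23925, 12853 and 26136 with infliximab against 7434, 4389 and 5494 in WT SFs (1.83, SE 0.34, adjusted p = 0.0487), and Ankrd1 was raised in that comparison too (1.73), but not without WT replicate 1 or 2 (1.56 each) or infliximab replicate 3 (1.30). Ctgf (0.93), Thbs1 (-0.01) and Cyr61 (-0.41) did not pass in hTNFtg against WT SFs, nor did Ctgf with infliximab against untreated hTNFtg SFs (0.89).

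Of 22 matrix genes of activated fibroblasts, Col8a1 and Loxl2 were raised in hTNFtg SFs and none was lowered, with 8 of 22 above 0 (median -0.13). Over all genes with a mean of at least 10, 4.96% were raised and 45.0% above 0. Col8a1, a short-chain collagen, was at 405, 333 and 208 in WT SFs and at 1271, 684 and 947 in hTNFtg SFs (1.62, SE 0.35, limma adjusted p = 0.0833). Loxl2, a collagen crosslinking enzyme, was at 359, 389 and 308 and at 1215, 833 and 1152 (1.58, SE 0.29, adjusted p = 0.0440). Both were also raised with infliximab against WT SFs (1.79 and 1.11), where 3.86% of all genes tested were. Without infliximab replicate 3, Loxl2 gave 0.80 there and no longer passed the rule. Neither gene passed between infliximab and untreated hTNFtg SFs (0.17 and -0.47). The highest genes, Sparc (-0.41), Col1a1 (-0.30), Serpinh1 (-0.94) and Lox (-0.16), did not pass in hTNFtg SFs.

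The 15 genes for TGF-beta ligands, receptors and feedback went both ways in hTNFtg SFs, with 2 raised and 2 lowered where 3.35% and 3.04% of all genes were, and 8 of 15 above 0 (median 0.05). Tgfbr2, the type II receptor (1.05, SE 0.44, limma adjusted p = 0.580), and Skil, a feedback repressor (1.19, SE 0.39, adjusted p = 0.328), were raised. Tgfb2, a ligand, was lowered, from 586, 344 and 632 normalized counts in WT SFs to 100, 137 and 204 (-1.83, SE 0.36, adjusted p = 0.0558), and so was the inhibitory Smad6 (-1.33, SE 0.42, adjusted p = 0.300). Of these, Tgfb2 passed with any 1 library left out. Tgfbr2 did not pass without WT replicate 2 (0.88), WT replicate 3 (0.94) or the shallow hTNFtg replicate 1 (0.54), Skil not without WT replicate 2 (0.87), and Smad6 not without WT replicate 3 (-1.10) or hTNFtg replicate 3 (-0.97). Tgfb2 and Smad6 were lowered with infliximab against WT SFs as well (-1.38 and -1.18, the latter -0.95 without WT replicate 3), where 2.95% of all genes were lowered. Ltbp2 (0.99) and Ltbp3 (-0.12), the highest of the list with Tgfb2 and Tgfbr2, did not pass.

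Markers of other cells moved between the same groups. The 7 leukocyte markers summed to 123, 237 and 99 normalized counts in WT SFs, 522, 381 and 855 in hTNFtg SFs and 498, 369 and 536 with infliximab, so that no WT library reached the others. Of the 5 tested, Ptprc, Cd68, Adgre1 and Cd14 were raised in both comparisons with WT SFs. Over all genes tested, 3.35% were raised in untreated hTNFtg and 3.86% in infliximab-treated against WT SFs. Among genes with a mean of at least 10 these shares were 4.96% and 4.34%. The Adgre1 call was lost in 3 of 6 fits with 1 library left out in untreated hTNFtg against WT SFs (1.66 without hTNFtg replicate 1, 1.53 and 2.03 without WT replicate 1 or 3). With infliximab against WT SFs it was lost in 4 of 6 (1.49 without infliximab replicate 3). The B and T cell genes Cd79a and Cd3e were at 0 in every library. The 10 pericyte and vascular smooth muscle markers summed to 667 to 878, 835 to 1283 and 1286 to 1469 in the same order of groups. In hTNFtg against WT SFs, 4 of the 9 tested were above 0 and their median log2 fold change was -0.32 (-0.0034 for all genes tested), so the higher sum was not shared by most of these markers. There 1 of them was raised and 1 lowered, where 3.35% and 3.04% of all genes tested were. Ndufa4l2, the highest of these markers, was raised (1.03, limma adjusted p = 0.233), at 456 to 635 against 216 to 336. It gave 0.90 and no longer passed the rule without hTNFtg replicate 1, and likewise lost the call without WT replicate 1 or 3. Rgs5 was lowered (-3.38, limma adjusted p = 0.139), at 0 to 4 against 25 to 31. Ndufa4l2 (569 to 715, limma adjusted p = 0.0293) and Cspg4 (log2 fold change 1.23) were raised with infliximab against WT SFs, where 3.86% of all genes tested were. Rgs5 (2.42) and Notch3 (1.12) were raised with infliximab against untreated hTNFtg SFs, where 1.49% were. Notch3 gave 0.51 without infliximab replicate 3 and 0.98 without hTNFtg replicate 1. The Cspg4 call was lost without WT replicate 2 (0.97) or infliximab replicate 1 (1.06), the Rgs5 rise without infliximab replicate 1 (2.45) or 2 (2.12), and the Notch3 call in 5 of its 6 such fits. The 6 chondrocyte markers summed to 6215 to 9345, 548 to 1209 and 903 to 2517. Of all genes tested, 3.04% were lowered in hTNFtg and 2.95% in infliximab-treated against WT SFs. Comp (-3.42 and -2.28) and Sox9 (-2.95 and -1.85) were lowered in each of these comparisons. Both genes were raised with infliximab against untreated hTNFtg SFs (1.14 and 1.10), where 1.49% of all genes tested were. Neither passed without hTNFtg replicate 1 (0.74 and 0.99), infliximab replicate 1 (0.76 and 0.97) or infliximab replicate 2 (1.02 and 0.91), nor did Comp without hTNFtg replicate 3 (1.18). Of the 12 fibroblast markers, Pdpn was raised (2.01) and Lum lowered (-1.69) in hTNFtg against WT SFs, where 3.35% and 3.04% of all genes tested were. Without hTNFtg replicate 1, Lum gave -1.62 and no longer passed the rule. With infliximab against WT SFs, Pdpn was again raised (1.54, limma adjusted p = 0.0132) and Lum lowered (-1.77), where 3.86% and 2.95% were. The Lum call of that comparison was lost without WT replicate 2 (-1.51). The 14 skeletal muscle markers summed to 290 to 440, 111 to 574 and 241 to 326. The part of these cells in the values of the contractile genes was not tested.

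**Figure D5:**
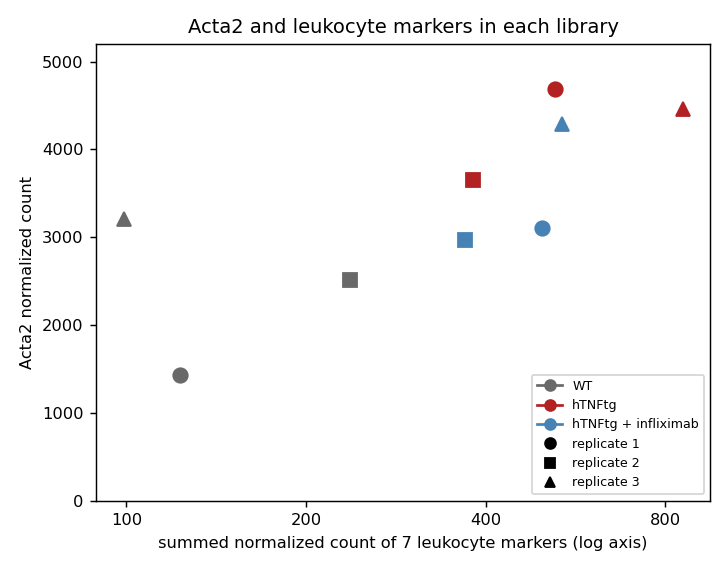
Normalized count of Acta2 against the summed normalized count of 7 leukocyte markers (log axis) in each library. WT libraries (grey) lie at 99 to 237 on the marker axis and the hTNFtg libraries without (red) and with infliximab (blue) at 369 to 855. WT replicate 3 has the lowest marker sum with an Acta2 count of 3203, above 2 of the 3 infliximab libraries.

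The genes most like Acta2 over the 9 libraries were sought among 8630 genes with a mean of at least 50, by Pearson's r on log2 of the normalized count plus 1. They were Ifi30 (r = 0.965), Bri3bp (0.950), Cybb (0.938), C1qc (0.936) and Rai14 (0.934). Ifi30, Cybb and C1qc are genes of macrophages and other phagocytes, and Cybb and C1qc were at 0 in WT replicate 1, where Acta2 was lowest. For Postn the closest were Crls1 (r = 0.966), Sppl2a (0.961), Atxn7l1 (0.944), Cemip (0.940) and Dnmt3a (0.937). Cemip, a hyaluronan-degrading protein, was highest in the same library as Postn, the shallow hTNFtg replicate 1, at 1015 normalized counts. The 9 points share the group differences and the depth of each library, and r is given as a description.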

How the data were processed

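The 10 genes and the lists around them were chosen with earlier results of these data known. RNA of 3 biological replicates per group, as the study's methods call them, was made into 3′ libraries (QuantSeq) and sequenced on an Ion Proton. The authors mapped reads to mm10 with TopHat2 and then Bowtie2, counted them per gene with GenomicRanges and normalized them for DESeq within metaseqr; versions are not given in the sources used here. The deposited score used here is 1 value per gene and library, a normalized count that was rounded to an integer. In every library the deposited signal is whole reads times a constant of that library, and 100% of its values under 100 fell on rounded multiples of the constant, a strict check only in hTNFtg replicate 1, where the constant is 6.23. The 24 other columns of per-sample values were not used. The fold changes and p-values of the authors' own comparisons, which the tables also hold, were not used either.

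Each comparison was fitted with limma 3.58.1 in R 4.3.3 (lmFit, then eBayes with trend) on log2(normalized count + 1), over the 6 libraries compared and genes above 0 in at least 1 of them, with Benjamini-Hochberg adjustment over all genes tested. The design had foreseen normalized counts and was kept as written. Approximate reads, the value divided by what 1 read is worth, were tested with edgeR 4.0.16 as an alternative. All 10 genes are named, as are the list genes past the rule with a mean of at least 10 and the 4 highest of each pathway list. Marker lists of other cells are given by sums and selected genes, and the genes of 1 list are not reported here. Both procedures were tested on simulated data. Other alternatives were pseudocounts of 5 and 0.5, a filter on a mean of at least 10, quantile and median-ratio scaling, array quality weights, a fit of all 9 libraries, the replicate number as a block and leaving out each library.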

Additional observations from a re-analysis of the deposited data

How the results depend on the processing

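Without 1 library at a time, 1 to 4 of the set passed the rule in hTNFtg against WT SFs (3 with all libraries; 1 without WT replicate 2), 0 in infliximab-treated against untreated hTNFtg SFs, and 1 to 2 in infliximab-treated hTNFtg against WT SFs (1 with all libraries; 2 without WT replicate 1 or infliximab replicate 2). The last count was also 2 with quantile scaling, 2 with array quality weights and 3 with edgeR. The other settings kept the counts within 1.5 times.

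Over all genes, 1823 passed in hTNFtg against WT SFs, 1183 among genes with a mean of at least 10 and 3540 with array quality weights. For infliximab against untreated hTNFtg SFs 693 passed, with 351 at a pseudocount of 5, 314 with the mean filter, 2144 with array quality weights, 1050 in the fit of all 9 libraries, 1228 with edgeR and 418 to 1411 with 1 library left out (1411 without hTNFtg replicate 1). The raised and lowered genes, 426 and 267, became 481 and 930 without hTNFtg replicate 1, 754 and 1390 with array quality weights and 519 and 709 with edgeR; in hTNFtg against WT SFs, 956 and 867 became 1510 and 845, 2218 and 1322, and 1528 and 924. For infliximab against WT SFs 1923 passed, with 1058 at a pseudocount of 5 and 1056 with the mean filter.

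Some directions turned. Between infliximab and untreated hTNFtg SFs, array quality weights gave 0.15 for Actg2, 0.031 for Cnn1 and -0.015 for Myl9, and edgeR gave -0.15 for Tagln and -0.18 for Myl9. With 1 library left out, that comparison ran from -0.97 to 0.22 for Actg2, -0.42 to 0.59 for Tagln, -0.50 to 0.59 for Myl9, -0.45 to 0.01 for Tpm1 and -2.21 to 0.24 for Lrrc15. Between infliximab and WT SFs, Cnn1 was -0.0011 with array quality weights and -0.041 with edgeR, Tpm2 was -0.10 with edgeR, and leaving out 1 library gave -0.31 to 0.41 for Cnn1, -0.30 to 0.42 for Tpm2 and -0.36 to 2.09 for Lrrc15. In hTNFtg against WT SFs, Myl9 ran from -0.036 to 1.06. The cause was not tested for any of these.

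The same replicate number was checked as a pairing. Deviations of same-numbered libraries from their group means, over 13600 genes, correlated at 0.292, -0.140 and 0.353 between hTNFtg and WT SFs. They correlated at 0.070, 0.197 and 0.265 between infliximab and hTNFtg, and at 0.102, -0.147 and 0.013 between infliximab and WT SFs. Differently numbered libraries correlated at -0.485 to 0.237, -0.256 to 0.126 and -0.174 to 0.216 in the same order. Between infliximab and hTNFtg SFs, same-numbered replicates 2 and 3 thus correlated above every differently numbered pair. The numbers were not taken to pair the libraries, but this check does not exclude a pairing. With the replicate block, 3, 0 and 1 of the set and 1659, 605 and 1698 of all genes passed in the 3 comparisons, and no gene reached an adjusted p below 0.05. Without hTNFtg replicate 2 or 3 the median of all genes was -0.12 and -0.17 against WT SFs (-0.0034 with all libraries), and 0.11 and 0.14 for infliximab against untreated hTNFtg SFs (0 with all libraries). The depth of hTNFtg replicate 1 limits Actg2 and Lrrc15, and with 3 libraries a group the intervals are wide throughout.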
